A study of Mus musculus with 12 samples.

Results

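Doxycycline switches on the transgene of MC38-idAdpgkG cells, and the comparison described here asks which other transcripts differed when it was given without the degrader dTAG-13. MC38-idAdpgkG is a stable derivative of MC38, a mouse colon carcinoma line from the C57BL/6 strain. It carries a doxycycline-inducible, degradable construct for a mutated Adpgk (ADP-dependent glucokinase) fused to turboGFP. The comparison used 6 of the 12 libraries of the series: the 3 control libraries and the 3 doxycycline libraries. Control cells had 20 ng/mL mouse interferon-gamma for 51 h, and doxycycline cells had the same interferon-gamma with 1 µg/mL doxycycline for 51 h. No library analysed here came from cells without interferon-gamma, and none from parental MC38 cells given doxycycline, so effects of the drug and of the transgene cannot be told apart. Each group was a single culture read as 3 technical libraries. Standard errors (SE) and adjusted p-values thus measure library-to-library spread only, and every difference below is a difference between 2 cultures.

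The other 6 libraries served as a second reading of the doxycycline effect that shares no library with the first. They came from cells given the same interferon-gamma and 1 µM dTAG-13 for the last 3 h, with or without the same 51 h of doxycycline. dTAG-13 brings proteins that carry its tag to cereblon, part of a ubiquitin ligase, so this second pair also carried a treatment that the first did not.

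In doxycycline-inducible systems the transgene is read by a transactivator that binds its promoter only while doxycycline is present. Doxycycline is also an antibiotic that binds bacterial ribosomes and, more weakly, the related ribosomes of mitochondria. Interferon-gamma acts through the kinases Jak1 and Jak2, which activate transcription factors that bind GAS elements and induce Irf1. Stat2 and Irf9 are parts of the complex that binds interferon-stimulated response elements (ISRE). The products include antigen presentation genes, GTPases that attack intracellular pathogens, antiviral proteins and chemokines.

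The 6 libraries held 29215355 to 32809573 counts. Mitochondrially encoded genes took 2.02 to 2.29% of them. Principal component 1 of the 6 libraries (43% of variance) separated the groups, and component 2 (15.9%) set control replicate 3 apart. Of 14 epithelial markers listed, none passed the filter on low counts, and Epcam, Cdx2, Cldn3 and Cldn4 had no read in any of the 6 libraries, although the label names a colon carcinoma. All 9 mesenchymal markers had a mean of at least 1 CPM (read counts scaled to library size by edgeR's cpm function), and their summed level was 2259.9 to 2307 CPM in control and 2111 to 2131 CPM with doxycycline. Vim, the most abundant of them, was at 1481 to 1523 CPM in control and fell to between 1284 and 1302 CPM with doxycycline (-0.21 on the log2 scale, edgeR adjusted p = 2.13e-12), and Cdh2 fell by 0.28 on the log2 scale, while Snai1, Snai2, Zeb1 and S100a4 rose by 0.14 to 0.48. Of 12 lymphocyte markers, 9 had no read. The summed level of 9 macrophage markers was 7.97 to 8.53 CPM in control and 7.51 to 9.2 CPM with doxycycline. The summed level of 8 fibroblast markers was 1163 to 1186 CPM in control and 1417 to 1461 CPM with doxycycline, mostly from Col3a1, which rose by 0.38 on the log2 scale. Pdgfra (0.27) and Pdgfrb (0.68) of that list also rose, Dcn fell (-0.20, edgeR adjusted p = 2.19e-05), and Thy1 and Fap had no read. These are bulk RNA levels, so fewer cells of a kind and less RNA per cell cannot be told apart.

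Doxycycline went with many small differences and few large ones. The calls were of 1917 genes upward (14.8% of the 12910 tested) and 2414 downward (18.7%), together 33.5%, with edgeR's quasi-likelihood test at a Benjamini-Hochberg adjusted p under 0.05. Most of the calls, 2977, were of less than 0.25 on the log2 scale. A change of at least 2-fold was called for 90 genes upward (0.697%) and 19 downward (0.147%), and 47 of these 109 had a mean of at least 1 CPM. Of those 47 genes, 44 were higher and 3 lower. The split between directions depended on the scaling: with library size only, which moved the median log2 fold change of all genes from -0.01 to 0.026, 2546 genes were called higher and 1607 lower.

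**Figure D1:**
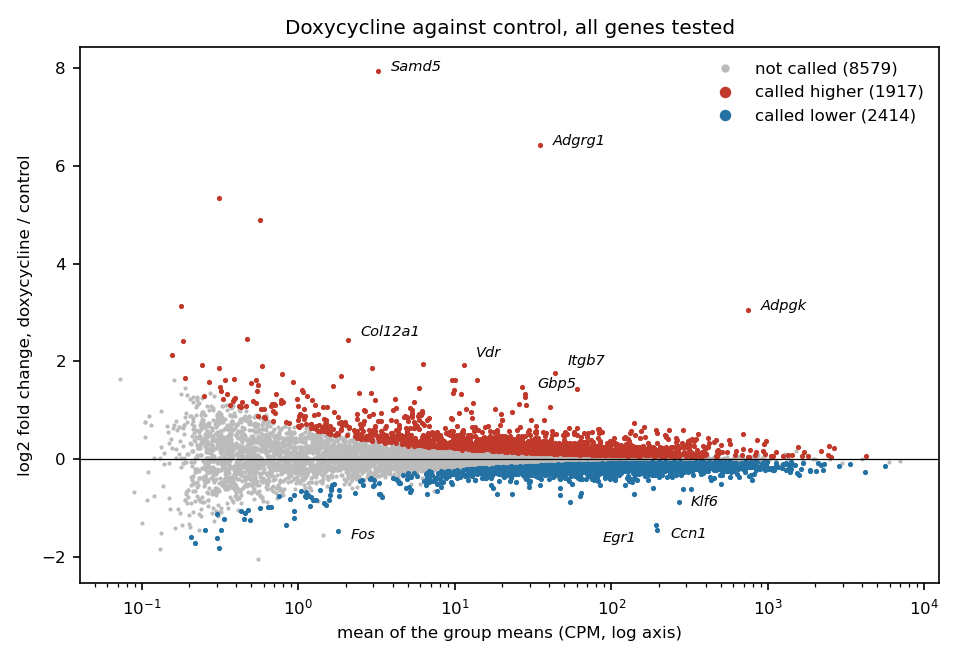
Each point is 1 of the 12910 genes tested, with the mean of the 2 group means in CPM on a log axis and the log2 fold change of doxycycline over control on the vertical axis. Red points are the 1917 genes called higher and blue points the 2414 called lower. Most called genes lie close to the line at 0, and Samd5, Adgrg1 and Adpgk lie far above it.

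Adpgk (Entrez 72141, chr9:59291572-59316200 on GRCm38.p6) converts glucose to glucose 6-phosphate with ADP and is the gene that the construct carries. Its level was 162, 158 and 162 CPM in the control libraries and 1343, 1316 and 1355 CPM in the doxycycline libraries. The groups were far apart, at 161 ± 2.49 against 1338 ± 20.1 CPM (SD, n = 3). On the log2 scale the increase was 3.06 (SE 0.0223, edgeR adjusted p = 1.95e-50). The count table has a single entry for Adpgk, so transgene and endogenous reads were not separated. The annotated gene overlaps Bbs4, which stood at 17.7 CPM in control and 16.2 CPM with doxycycline and was not called (adjusted p = 0.123).

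Adgrg1, an adhesion G protein-coupled receptor also known as GPR56, was close to absent in control and abundant with doxycycline. It stood at 0.91, 0.419 and 1.1 CPM in control and at 69.1, 72.7 and 66.2 CPM with doxycycline. Its log2 fold change was 6.43 (SE 0.104, edgeR adjusted p = 1.73e-32), against 6.80 in the pair with dTAG-13, and the 2 values did not differ by the test of the difference (adjusted p = 0.426). Samd5 encodes a protein with a sterile alpha motif domain. Its control libraries held 0, 0 and 2 reads, and its doxycycline libraries 179, 185 and 211. The ratio of its summed reads, scaled to library size, was 291, with an exact 95% counting interval of 80.3 to 2413.

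A further 7 genes completed the 10 largest increases at a mean of at least 1 CPM, and none of them overlapped between the groups (43.9% of all genes tested did not). Col12a1, a collagen that sits on the surface of collagen fibrils, went from 0.646 ± 0.111 to 3.51 ± 0.138 CPM (SD, n = 3), or 2.43 in log2. Sntb1, a syntrophin of the dystrophin complex, rose by 1.94 on the log2 scale, and Nhs, a regulator of actin remodelling, by 1.87. Vdr, the nuclear receptor for vitamin D, stood at 3.98, 4.8 and 5.47 CPM in control and at 17.7, 18.7 and 17.5 CPM with doxycycline, or 1.93 as a log2 ratio (SE 0.0938, edgeR adjusted p = 5.4e-20). Every doxycycline library was far above every control library. Itgb7, an integrin beta chain that leukocytes use for homing to the gut, stood at 21.1, 20.7 and 18 CPM in control and at 66.8, 67.4 and 68.6 CPM with doxycycline. Its log2 fold change was 1.76 (SE 0.0497, edgeR adjusted p = 3.57e-28). The other two were the antiviral gene Oas2, at 1.71, and Nos2, the inducible nitric oxide synthase, at 1.62. All 10 genes were also called higher in the pair with dTAG-13, where Nos2 had the smallest log2 fold change of the 10, 0.42.

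The 10 largest decreases were smaller, and immediate early genes were among them. Ccn1, a secreted matricellular protein that serum and the YAP coactivator induce, fell from 289, 283 and 292 CPM to 109, 104 and 106 CPM. Its log2 fold change was -1.44 (SE 0.0285, edgeR adjusted p = 1.19e-33). Egr1, a zinc finger transcription factor induced within minutes of growth factor signalling, stood at 277, 270.2 and 291 CPM in control and at 107, 111 and 109 CPM with doxycycline, which is -1.35 on the log2 scale (SE 0.0283, edgeR adjusted p = 5.93e-33). For both genes the doxycycline libraries lay close together and far below all control libraries. Fos, a subunit of the AP-1 transcription factor, was at a low level throughout, with 2.62 ± 0.349 CPM in control and 0.947 ± 0.0974 CPM with doxycycline (SD, n = 3), a log2 fold change of -1.46. Klf6, another early-response transcription factor, fell from 347 to 190.4 CPM, or -0.87 in log2. Rgs16, which shortens signalling by G proteins, fell from 69.9 to 38.3 CPM, also -0.87.

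The other five decreases were of genes under 3 CPM. Nipal1, a magnesium transporter, had a log2 fold change of -0.90. Tnnt2, the cardiac form of troponin T, had -0.83. Rnf225 had -0.96 and Iqcg -0.84, and the annotation of Iqcg overlaps Lrch3. Fosb, an AP-1 subunit, had -0.83, and its call was lost without control replicate 2 (-0.67, edgeR adjusted p = 0.0571) or doxycycline replicate 2 (-0.53, adjusted p = 0.0847).

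Where the mean reached 100 CPM, the largest increases after Adpgk were 0.60 to 0.75 on the log2 scale. Rarg, a nuclear receptor for retinoic acid, stood at 106, 98.8 and 109 CPM in control and 173, 179 and 175 CPM with doxycycline, a log2 fold change of 0.75. Igfbp6, which binds insulin-like growth factor 2, rose from 126 to 199 CPM (0.66). Igfbp6 (chr15:102144186-102149512), Itgb7 (chr15:102215994-102233405) and Rarg (chr15:102234938-102257522) lie close together on the GRCm38.p6 genome. Whether their position has a part in these increases was not tested. Sparc, a collagen-binding matrix protein, rose from 184 to 280 CPM, and Fstl1, a secreted glycoprotein, from 153 to 233 CPM, both 0.60. Besides Ccn1, Egr1 and Klf6, the largest decreases were of Trib1 (172 to 105 CPM, -0.71) and Ppp1r15a (388 to 255 CPM, -0.60). Trib1 is a pseudokinase that directs C/EBP-alpha to degradation, and Ppp1r15a directs a phosphatase to the translation factor eIF2-alpha, and its annotation overlaps Tulp2. None of these genes overlapped between the groups.

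**Figure D2:**
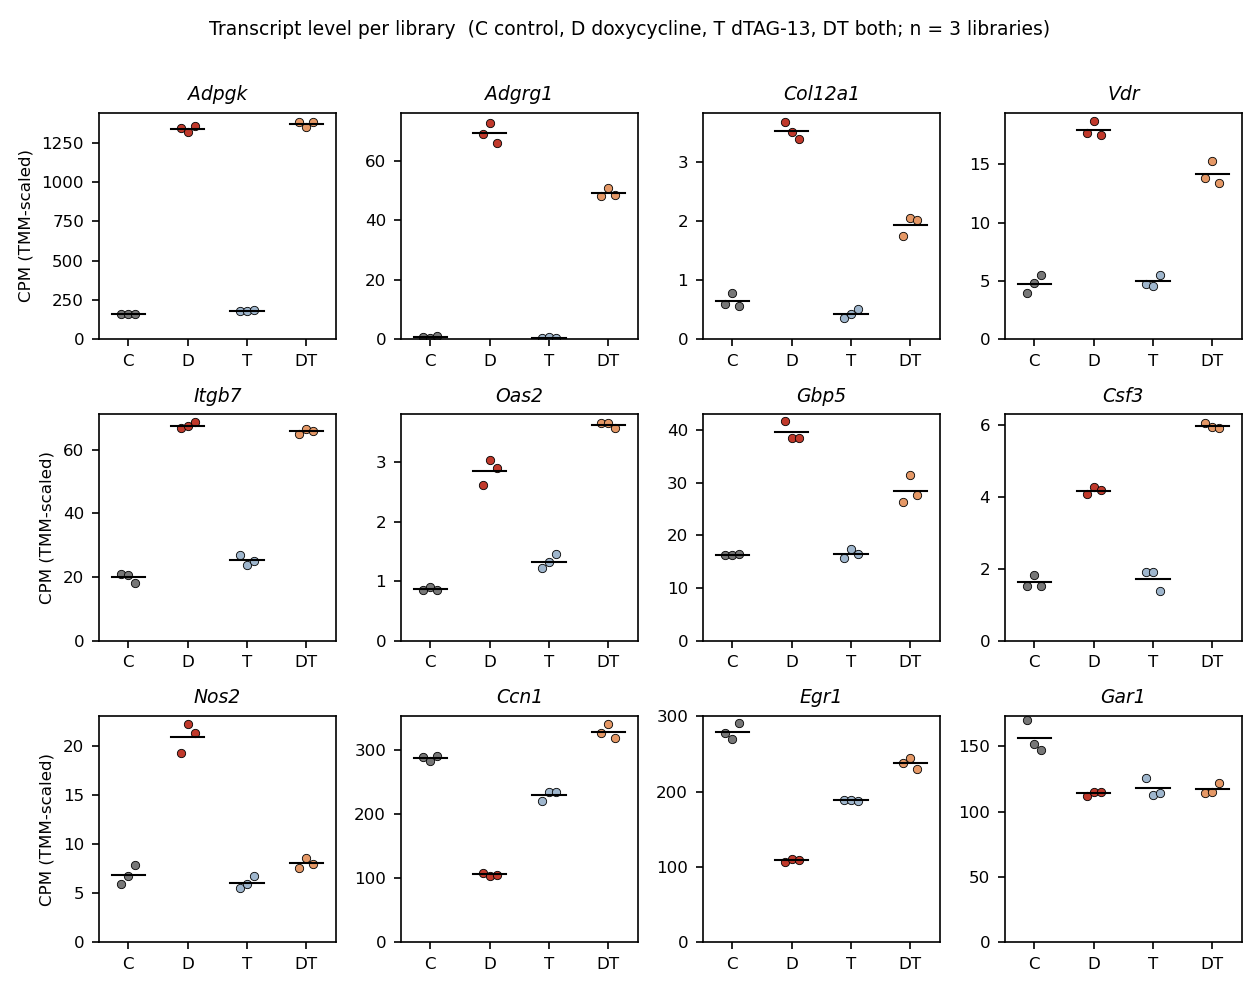
Level of 12 genes in CPM, on linear axes from 0, in the control (C), doxycycline (D), dTAG-13 (T) and doxycycline plus dTAG-13 (DT) libraries. Points are libraries and lines are group means (n = 3). Adpgk and Adgrg1 are high in both groups with doxycycline, while Ccn1 and Egr1 are low only in the doxycycline libraries without dTAG-13, at 104 to 109 and 107 to 111 CPM.

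Interferon-stimulated genes differed between the groups although all cells had interferon-gamma. Of 41 antiviral genes tested, 30 were called higher and none lower, and their median log2 fold change was 0.38, against -0.01 for all genes. No member was lower by DESeq2 or at an unadjusted p under 0.05 in edgeR either. Of 19 guanylate-binding proteins (GBP) and immunity-related GTPases (IRG), 15 were called higher and 1 lower, with a median of 0.40. Of 14 genes of interferon-gamma signalling, 8 were called higher and 1 lower, with a median of 0.17. Of all genes, 14.8% were called higher and 18.7% lower. With dTAG-13 the medians were 0.39, 0.40 and 0.08, and 28, 14 and 6 of these genes were called higher in both pairs. Over all genes, 494 (3.83%) were called higher in both. By the test of the difference, the effect differed between the pairs for 12, 7 and 9 of these genes, against 22.9% of all genes. Among the 12, 7 and 9, a greater value with dTAG-13 was seen for 10, 2 and 1, and a smaller value for 2, 5 and 8.

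In the signalling list, Stat2 rose from 61.2 to 89.3 CPM (0.55). Jak1, the kinase bound to the interferon receptors, rose from 227 to 290.4 CPM (0.36), and its annotation overlaps Raver2. Irf1 had 0.17 and Irf9 0.18. Socs1, a feedback inhibitor of the Jak kinases, also rose (0.41), whereas Socs3, an inhibitor best known for its action on the gp130 receptor, fell from 30.4 to 24.2 CPM (-0.33). The receptor chain Ifngr2 rose by 0.17, and Ifngr1 was not called at 0.14 (edgeR adjusted p = 0.0507).

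Gbp5, a GTPase that promotes inflammasome assembly, had the largest value of the GTPases. It stood at 16.3, 16.2 and 16.4 CPM in control and at 41.7, 38.5 and 38.5 CPM with doxycycline, or 1.28 as a log2 ratio (SE 0.0603, edgeR adjusted p = 1.89e-20). The control libraries were nearly equal and all lay far below the doxycycline libraries. Gbp8 (0.91) and Gbp9 (0.61) followed. Their annotations overlap each other and Gbp4, so the split of reads between these 3 genes is uncertain. Gbp2 rose from 732 to 962 CPM (0.39), Gbp3 from 188 to 261 CPM (0.47) and Gbp7 from 297 to 398 CPM (0.42). The IRG proteins moved apart: Igtp (Irgm3) rose by 0.30 and Irgm2 by 0.24, Irgm1 fell from 453 to 405 CPM (-0.16), and Tgtp1 stood at 282 CPM in both groups.

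The promoters of these GTPases are shown because their shared element is the one that the interferon complex reads. RefSeq promoters (GRCm38.p6) were found for 11 of the 19 GTPases and for 9754 of the genes tested. In the 250 bases before the start, the ISRE core GAAANNGAAA, read on both strands so that it may appear as its reverse complement, occurred in 10 of the 11 (90.9%) and in 257 of the 9754 (2.63%). Below are 60-base stretches on the gene's strand, 5′ to 3′, with the matches in capitals.
Gbp2 (chr3:142620579-142620638, + strand): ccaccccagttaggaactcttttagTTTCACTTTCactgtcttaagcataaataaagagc
Gbp3 (chr3:142559980-142560039, + strand): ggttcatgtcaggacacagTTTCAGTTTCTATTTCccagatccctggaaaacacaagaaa
Gbp5 (chr3:142496744-142496803, + strand): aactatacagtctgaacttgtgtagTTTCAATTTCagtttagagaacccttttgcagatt
Gbp7 (chr3:142530258-142530317, + strand): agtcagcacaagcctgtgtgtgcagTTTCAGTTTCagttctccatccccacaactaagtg
Irgm1 (chr11:48871421-48871480, - strand): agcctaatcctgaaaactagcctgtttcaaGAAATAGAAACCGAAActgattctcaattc
Irgm2 (chr11:58214888-58214947, + strand): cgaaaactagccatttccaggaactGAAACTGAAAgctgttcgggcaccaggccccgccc
Igtp (chr11:58199496-58199555, + strand): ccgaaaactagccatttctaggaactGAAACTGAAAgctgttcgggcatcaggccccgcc
Tgtp1 (chr11:48992289-48992348, - strand): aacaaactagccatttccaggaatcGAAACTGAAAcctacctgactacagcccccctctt

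The match ended 155 bases before the start in Gbp5 and 24 bases before it in Igtp. Irgm1, which fell, and Tgtp1, which was not called, hold the element as do Igtp and Irgm2, which rose. Of the 257 genes with the element, 76 (29.6%) were called higher, against 15.4% of all 9754 genes with a promoter. For dTAG-13 libraries these shares were 24.5 and 10.5%. The GAS element TTCNNNGAA occurred in 6 of the 11 GTPase promoters and in 6.02% of all, and genes that hold it were called higher in 15.2% of cases. A match is a description of letters and not evidence that a factor binds.

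Among the antiviral genes, Oas2 (1.71), Ifit3 (1.36) and Ifi44 (1.15) had the largest values at a mean of at least 1 CPM. Ifit3, which binds viral RNA together with Ifit1, stood at 5.84, 5.8 and 4.72 CPM in control and at 13.7, 14.1 and 14.5 CPM with doxycycline. Its log2 fold change was 1.36 (SE 0.0954, edgeR adjusted p = 4.85e-15) and the groups did not overlap. Its promoter holds the same element.
Ifit3 (chr19:34583382-34583441, + strand): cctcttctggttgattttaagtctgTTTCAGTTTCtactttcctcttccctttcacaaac
Ifi44 rose from 8.16 to 18.1 CPM, Oas3, a sensor of double-stranded RNA, from 11.9 to 24.2 CPM, and Rsad2 (viperin) from 15.7 to 30.7 CPM. Irf7, the transcription factor that amplifies type I interferon production, rose from 7.24 to 14 CPM. Isg15, a ubiquitin-like modifier, rose from 33.3 to 42.9 CPM (0.37) here and by 0.78 in the pair with dTAG-13.

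Of 19 genes of antigen presentation by MHC class I, 8 were called higher, against 14.8% of all genes, and 4 lower, close to the 18.7% of all genes, with a median of 0.035. The number called lower was 1 with library size only or in the fit to the 6 libraries alone, 2 after the length and GC correction, and 1 or 2 without control replicate 1 or 2, without any 1 of the doxycycline libraries, or without dTAG-13 replicate 1 or 2. H2-T23, which encodes the non-classical molecule Qa-1, rose from 3.42, 3.64 and 3.05 CPM to 7.74, 6.23 and 7.01 CPM, or 1.05 in log2. B2m, the shared light chain, rose by 0.22, and the immunoproteasome subunit Psmb9 by 0.24. Nlrc5, the transactivator of class I genes, rose by 0.25, and the peptide-loading genes Tapbp and Tapbpl by 0.19 and 0.27. Of the classical heavy chains, H2-K1 was not called (1447 against 1384 CPM, edgeR adjusted p = 0.226) and H2-D1 had -0.088 (adjusted p = 0.0472). For class II, 7 of 12 genes did not pass the filter, including the transactivator Ciita and the chains H2-Aa, H2-Ab1 and H2-Eb1. The class II promoter factors Rfx5 (0.19) and Rfxap (-0.18) were called, and both calls were lost without control replicate 1 (adjusted p = 0.0546 and 0.102), doxycycline replicate 1 (0.122 and 0.0781) or doxycycline replicate 2 (0.0741 and 0.169). Rfx5 also lost its call without control replicate 3 (0.0997) or with DESeq2 (adjusted p = 0.0707), and Rfxap with library size only (0.0836).

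Chemokines, cytokines and checkpoint ligands had a median of 0.54 here, the highest of the lists, and of 0.66 in the pair with dTAG-13, where the mitochondrially encoded messages had a higher one. Of 29 listed, 17 passed the filter on low counts, so the medians are over those 17. Among them, 11 were called higher and 3 lower, against 14.8% and 18.7% of all genes, so the number lower is near that share. Ido1 and Il15, among the 11, had a mean under 1 CPM. The effect differed between the pairs for 5 of the 17, against 22.9% of all genes. It was greater with dTAG-13 for 3 of them and smaller for 2. Csf3, the granulocyte colony-stimulating factor, stood at 1.51, 1.84 and 1.53 CPM in control and at 4.08, 4.27 and 4.18 CPM with doxycycline, which is 1.36 on the log2 scale (SE 0.155, edgeR adjusted p = 3.34e-09). Its values in the doxycycline libraries were all above 4 CPM and in control all below 2 CPM. Tnfsf10, the death ligand TRAIL, had the same log2 fold change, 1.36. The monocyte attractants Ccl7 (1.22) and Ccl2 (0.53), the neutrophil attractant Cxcl1 (0.95) and the T cell attractant Cxcl10 (0.54) rose as well. Cd274 (PD-L1) rose from 84.9 to 93.3 CPM (0.14). Csf1, the macrophage growth factor, fell from 909.9 to 677 CPM (-0.43), and the alarmin Il33 and the poliovirus receptor Pvr had -0.29 and -0.08. Without control replicate 3 or doxycycline replicate 2, the number called lower was 1. Nos2, on the same list, stood at 5.9, 6.73 and 7.84 CPM in control and 19.3, 22.2 and 21.3 CPM with doxycycline. Cxcl9 and Ccl5, which interferon-gamma induces in many cells, were not called.

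**Figure D3:**
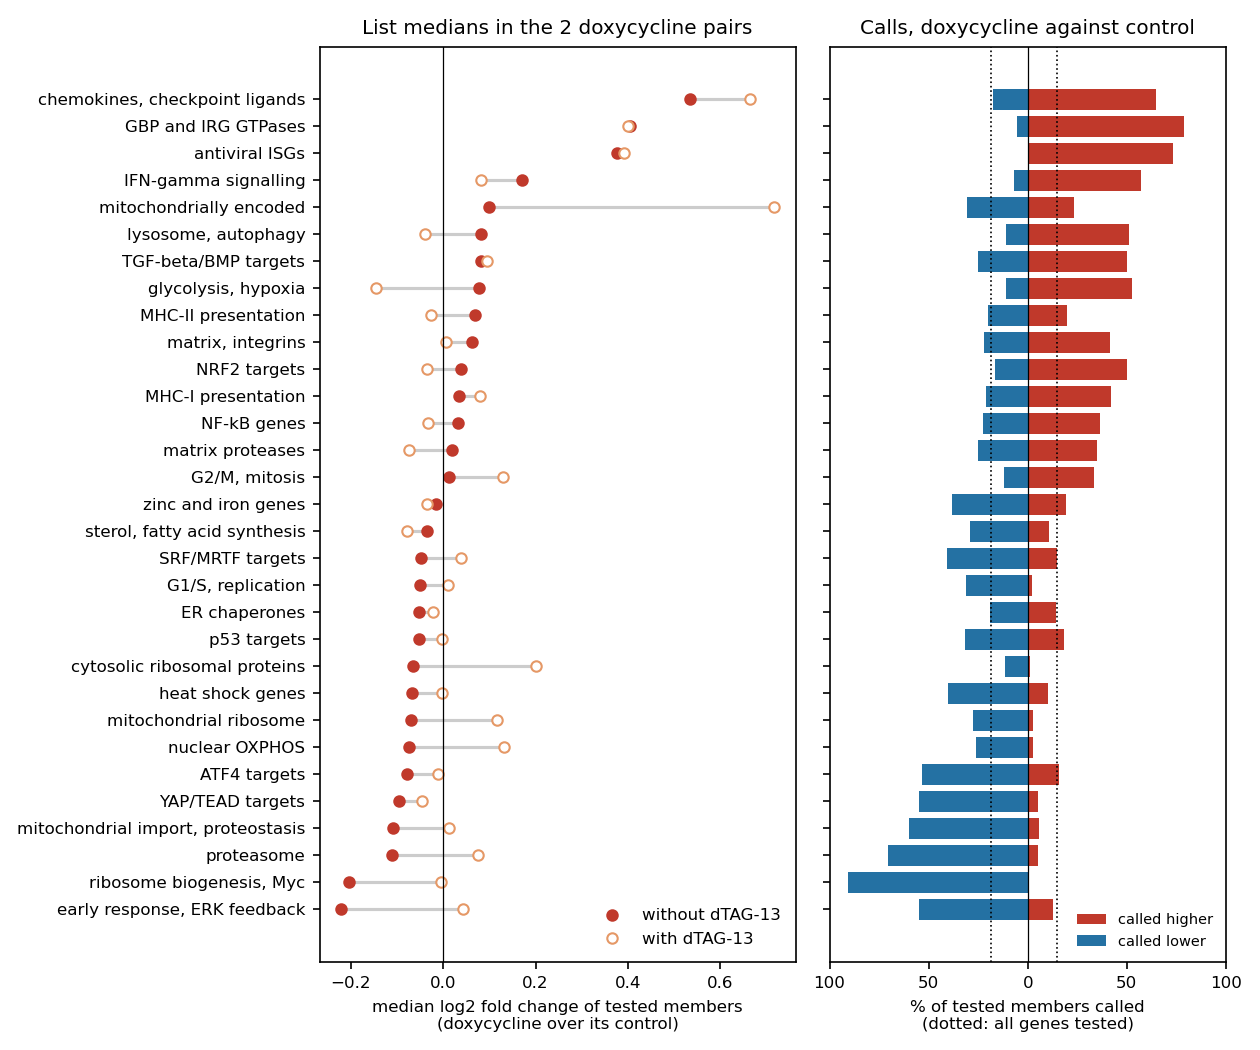
Left, median log2 fold change of the tested members of 31 gene lists for doxycycline over control (filled) and for doxycycline plus dTAG-13 over dTAG-13 (open). Right, percentage of tested members called higher (red) or lower (blue) in doxycycline against control, with dotted lines at the 14.8 and 18.7% of all genes. Chemokine, GTPase and antiviral lists lie to the right in both pairs, while early-response and ribosome biogenesis lists lie to the left in the pair without dTAG-13.

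Early-response genes and feedback genes of the ERK pathway, the kinase cascade that carries growth factor signals, were mostly lower. Of 40 tested, 22 were called lower and 5 higher, against 18.7% and 14.8% of all genes. The number higher was thus near that share, and the median of the list was -0.22. In the pair with dTAG-13 the median was 0.04, and 6 were called lower and 2 higher in both pairs, against 3.68% and 3.83% of all genes. The doxycycline effect differed between the pairs for 23 of the 40 by the test of the difference, 19 of them toward a greater value with dTAG-13, while 22.9% of all genes differed. Of the 2950 genes that differed, 1705 had a greater value with dTAG-13 and 1245 a smaller one. Among the transcription factors, Jun fell from 564 to 451 CPM (-0.32), Ier2 from 78.8 to 48.9 CPM (-0.69) and Atf3 from 4.1 to 2.51 CPM (-0.71). Of the phosphatases that switch off MAP kinases, Dusp6 fell from 202 to 160.2 CPM (-0.33) and Dusp1 from 6.13 to 4.12 CPM (-0.57). The ERK inhibitors Spry4 (-0.40) and Spry2 (-0.38), the ETS factors Etv4 (-0.16) and Etv5 (-0.25) and the EGF receptor ligand Hbegf (-0.52) fell, and Spry4, Etv4, Etv5 and Hbegf were also called lower with dTAG-13. The 5 that rose were Fosl2 (124 to 186 CPM, 0.58), Ier3, Klf4, Klf10 and Ereg.

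Targets of the YAP and TEAD factors, which respond to cell shape and contact, had 11 called lower and 1 higher of 20. Of all genes, 18.7% were called lower and 14.8% higher. The median of these targets was -0.096. With scaling by library size only, 5 were called lower, and without doxycycline replicate 2 it was 6. Ankrd1 fell from 71.7 to 54.4 CPM (-0.40) and Amotl2, an inhibitor of YAP, from 104 to 78.9 CPM (-0.39). Ccn2, the other well-known target, had 0 to 2 reads in each of the 6 libraries. In the pair with dTAG-13 the median of the 20 targets was -0.045, with 1 called lower and 1 higher. In both pairs 1 was called lower, against 3.68% of all genes. The effect differed between the pairs for 5 of the 20, near the 22.9% of all genes. Of 27 genes of the serum response factor (SRF) and actin programme, 11 were called lower and 4 higher, the latter near the 14.8% of all genes. Their median was -0.048, and it was 0.003 without doxycycline replicate 1. Without control replicate 1, 2 of them were called higher. Srf itself fell from 115, 115 and 110 CPM to 93.8, 91.7 and 97.9 CPM, or -0.26 as a log2 ratio (edgeR adjusted p = 1.66e-08), with no overlap. The alpha-actinins Actn4 (-0.25, overlapping Capn12) and Actn1 (-0.21) fell, as did Actb (-0.14). The CArG box, which SRF binds, occurred in 5 of 23 promoters of this list and in 1.16% of all. The promoter of Srf holds it in 2 places, in capitals here.
Srf (chr17:46556190-46556249, - strand): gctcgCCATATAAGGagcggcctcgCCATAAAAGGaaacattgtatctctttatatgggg

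Targets of TGF-beta and BMP had 10 called higher and 5 lower of 20, against 14.8% and 18.7% of all genes. Their median was 0.08 here and 0.10 with dTAG-13. Thbs1, which activates latent TGF-beta, rose from 54.4 to 78.4 CPM (0.53) and the matrix protein Tgfbi from 34.8 to 49 CPM (0.50). The inhibitor Smad7 fell from 73.6 to 55.3 CPM (-0.41), and the activin subunit Inhba from 157 to 132 CPM (-0.24). Id1 (-0.38) and Id3 (0.20), both BMP targets, moved in opposite directions. Of 22 NF-kB genes, 8 were called higher and 5 lower, the latter near the 18.7% of all genes. Their median was 0.033, and 5 were higher without control replicate 1 or without doxycycline replicate 1. Bcl3 (0.93) and Nfkbie (0.50), both of the inhibitor family, rose, while Nfkbiz (-0.32) and Nfkbia (-0.16) of the same family fell.

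Genes of ribosome production were nearly all lower. In the list of ribosome biogenesis genes and Myc, 38 of 42 were called lower and none higher, against 18.7% and 14.8% of all genes. The median of the list was -0.20. No member was called higher by edgeR or DESeq2, or at an unadjusted p under 0.05, while 1 was with library size only or after the length and GC correction. The changes were small for each gene. Fbl, the methyltransferase of ribosomal RNA, went from 99.8 ± 7.01 to 69.5 ± 3.33 CPM (SD, n = 3), which is -0.52 on the log2 scale (edgeR adjusted p = 0.00166). Gar1, a subunit of the pseudouridylation complex, stood at 170.2, 152 and 147 CPM in control and 112, 115 and 115 CPM with doxycycline, or -0.46 as a log2 ratio (SE 0.0575, adjusted p = 0.000113). The spread of the control libraries was wider than that of the doxycycline libraries, and the groups did not overlap. Rrp9 (-0.38, overlapping Parp3), nucleolin Ncl (-0.25), nucleophosmin Npm1 (-0.21) and the polymerase I subunit Polr1a (-0.19) fell too. Myc, the transcription factor that drives this programme, fell from 471, 471 and 504 CPM to 376, 383 and 370 CPM, which is -0.36 on the log2 scale (SE 0.0276, adjusted p = 1.19e-11). In the pair with dTAG-13 the median of the list was -0.004, 4 genes were called lower in both pairs, and the effect differed between the pairs for 34 of the 42, always toward a greater value with dTAG-13. Over all genes, 3.68% were called lower in both pairs and the effect differed for 22.9%. The E-box CACGTG, which Myc binds, occurred in 2 of 35 promoters of the list and in 8.38% of all.

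Proteasome subunits showed a like pattern at a smaller size. Of 37 tested, 26 were called lower and 2 higher, against 18.7% and 14.8% of all genes. The median of the list was -0.11. With library size only, 17 were called lower, and without control replicate 1 or doxycycline replicate 1, 1 was called higher. The largest values were those of the assembly factor Psmg3 (-0.25, overlapping Gm26938), the ubiquitin receptor Adrm1 (-0.24) and the core subunit Psmb3 (-0.23), and Psma1 (0.10) and Psmc6 (0.09) rose. In the pair with dTAG-13 the proteasome median was 0.076, with 19 called higher and none lower, against 10.7% and 9.64% of all genes. No subunit was called lower in both pairs. The effect differed for 30 of the 37, against 22.9% of all genes, always toward a greater value with dTAG-13. Cytosolic ribosomal proteins had 9 called lower and 1 higher of 78, below the 18.7% of all genes called lower, and their median was -0.065. Rpl10 fell from 33.5 to 27.5 CPM (-0.29). With library size only the number called lower was 5, with DESeq2 it was 15, and without control replicate 1 or doxycycline replicate 1 it was 4. The number called higher ran from 0 without control replicate 1 or doxycycline replicate 3 to 3 without doxycycline replicate 1 or in the fit to the 6 libraries alone and 4 with no filter on low counts. In the pair with dTAG-13 the median of these 78 genes was 0.201, with 22 called higher and none lower. The effect differed between the pairs for 19 of them, near the 22.9% of all genes, always toward a greater value with dTAG-13.

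Of 35 genes for mitochondrial import, chaperones, proteases and translation factors, 21 were called lower and 2 higher, with a median of -0.11. Phb, a scaffold of the inner membrane, fell from 109 to 90.1 CPM (-0.27), Tomm40, the import pore of the outer membrane, from 201 to 169 CPM (-0.25), and the chaperonin Hspd1 from 989.6 to 891 CPM (-0.15). Ppargc1a, the coactivator of mitochondrial biogenesis, was called higher at 0.708 against 1.31 CPM (0.89), and its call was lost without control replicate 1 or 2 or doxycycline replicate 2 or 3 (0.77 to 0.87, edgeR adjusted p = 0.05 to 0.0757). Of 76 nuclear subunits of oxidative phosphorylation, 20 were called lower and 2 higher, with a median of -0.073, and of 79 proteins of the mitochondrial ribosome, 22 and 2, with -0.070. Called in either direction were 28.9% and 30.4% of these lists, against 33.5% of all genes, and 18.7% of all genes were called lower. Mrpl20 fell from 63.9 to 54 CPM (-0.24) and Mrpl16 from 46.1 to 39.3 CPM (-0.23), whereas Ndufa6 of complex I rose (0.28). The numbers called lower were 9 and 10 with library size only, where 1607 of all 12910 genes were called lower, 13 and 11 without control replicate 2, and 10 and 10 without doxycycline replicate 1. Without doxycycline replicate 2, 14 mitochondrial ribosome genes were called lower. Without doxycycline replicate 1, 4 oxidative phosphorylation genes were called higher, and with library size only 5 were. No mitochondrial ribosome gene was called higher without control replicate 1, doxycycline replicate 1 or 2 or dTAG-13 replicate 3. In the pair with dTAG-13 the medians of these 3 lists were 0.01, 0.13 and 0.12, and the effect differed between the pairs for 16, 44 and 49 genes, always toward a greater value with dTAG-13. Over all genes 22.9% differed, 1705 toward a greater and 1245 toward a smaller value.

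The 13 mitochondrially encoded messages split, with 3 called higher and 4 lower, against 14.8% and 18.7% of all genes. mt-Nd3 stood at 256, 267 and 298 CPM in control and at 356, 379.7 and 346 CPM with doxycycline, or 0.40 as a log2 ratio (SE 0.0579, edgeR adjusted p = 0.000669). mt-Nd2 (0.26) and mt-Atp6 (0.27) rose as well. mt-Nd5 went from 1761 to 1399 CPM (-0.33), mt-Cytb from 4590.3 to 3794 CPM (-0.27) and mt-Co1 from 5863 to 5345 CPM (-0.13). mt-Nd6 overlaps mt-Nd5 on the other strand and had the same value, and its call was lost in the fit to the 6 libraries alone (-0.31, adjusted p = 0.0764). In that fit 2 were called lower, and without control replicate 3, 5 were called higher. With dTAG-13 the median of the 13 was 0.72, and the effect differed for 11 of them, against 22.9% of all genes, always toward a greater value.

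Cell cycle genes had medians near 0, and no difference between phases was tested. Of 48 genes of G1/S and DNA replication, 15 were called lower and 1 higher, against 18.7% and 14.8% of all genes. The median of the list was -0.049, and 9 were called lower with library size only or without doxycycline replicate 2. Cyclin D1 (Ccnd1, overlapping LTO1), which starts the cycle, fell from 2008 to 1687 CPM (-0.25), thymidylate synthase Tyms from 31.4 to 26.4 CPM (-0.25) and the ribonucleotide reductase subunit Rrm2 from 527 to 469.6 CPM (-0.17). Of 42 genes of G2 and mitosis, 14 were called higher and 5 lower, against 14.8% and 18.7% of all genes. The number lower was thus below that share. The median of the list was 0.013 (-0.001 after the length and GC correction), and 12 were higher in both pairs, against 3.83% of all genes. Those called higher included the spindle protein Nusap1 (72 to 85.3 CPM, 0.24, overlapping Oip5), the phosphatase Cdc25b (0.24, overlapping Spef1), the kinetochore protein Nuf2 (0.17), topoisomerase Top2a (0.15) and the proliferation marker Mki67 (0.07). Plk1 (-0.12) and Cdc20 (-0.08), which act in mitosis, fell, and the number called lower was 2 or 3 without control replicate 2, dTAG-13 replicate 2 or any 1 of the doxycycline libraries, 3 in the fit to the 6 libraries alone, and 1 with library size only.

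Stress programmes moved in both directions. Of 32 targets of ATF4 and the integrated stress response, 17 were called lower and 5 higher, the latter near the 14.8% of all genes. Their median was -0.079, and 11 were lower with library size only. Those that fell included the serine synthesis gene Psat1 (-0.13), the cystine carrier Slc7a11 (-0.23), the mTORC1 inhibitor Sesn2 (149.9 to 110.2 CPM, -0.44) and Atf4 itself (-0.08). Asns, Ddit3 and Trib3, which ATF4 induces, were not called, at -0.015, -0.007 and 0.0024. Cebpb rose from 187 to 257 CPM (0.46), and its annotation overlaps Tmem189. Of 22 p53 targets, 7 were called lower and 4 higher, against 18.7% and 14.8% of all genes, so the number higher is near that share. Their median was -0.053. The polo-like kinase Plk2 fell from 595, 591 and 585 CPM to 419.7, 416 and 418 CPM, which is -0.50 on the log2 scale (edgeR adjusted p = 3.01e-22), with tight and separate groups. Cdkn1a and Mdm2 were not called (-0.04 and 0.02). The death receptor Fas was called at 0.72, and the call was lost without control replicate 1 (0.58, adjusted p = 0.0771) or doxycycline replicate 2 (0.63, adjusted p = 0.059). Without doxycycline replicate 2 or with library size only, 4 p53 targets were called lower. The number called higher was 1 or 2 with DESeq2 or without any 1 of the control libraries or doxycycline replicate 2.

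Of 24 targets of NRF2, the regulator of antioxidant genes, 12 were called higher and 4 lower. Of all genes, 14.8% were called higher and 18.7% lower, so the number lower was near that share. The median of the targets was 0.039. The number called lower was 1 without control replicate 1 or 2, doxycycline replicate 1 or 2 or dTAG-13 replicate 1 or 2. The glutathione transferase Gstm1 stood at 7.37, 7.86 and 8.2 CPM in control and at 16.3, 16.4 and 15.1 CPM with doxycycline, or 1.03 as a log2 ratio (SE 0.0773, edgeR adjusted p = 4.66e-14). Each doxycycline library was close to 2-fold the control level. Gstm5 (1.00), the quinone reductase Nqo1 (0.94), haem oxygenase Hmox1 (295 to 421 CPM, 0.51) and peroxiredoxin Prdx1 (0.35) rose, while thioredoxin reductase Txnrd1 (-0.06) and the autophagy adaptor Sqstm1 (-0.21) fell. Hmox1 had -0.28 in the pair with dTAG-13.

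Of 21 endoplasmic reticulum chaperones and stress genes, 3 were called higher and 4 lower, close to the 14.8% and 18.7% of all genes. Hspa5 (BiP), the main chaperone there, stood at 2432, 2444 and 2389.6 CPM in control and 2054, 2068 and 2079 CPM with doxycycline, which is -0.23 on the log2 scale (SE 0.0166, edgeR adjusted p = 1.46e-14). The degradation factors Sel1l (0.23) and Edem1 (0.18) rose. Of 20 heat shock genes, 8 were called lower and 2 higher, with a median of -0.067. Hspa4l rose from 129 to 174 CPM (0.43) and the cochaperone Dnajb4 by 0.21, and Hsp90aa1 fell by 0.12 on the log2 scale. Of 21 genes of zinc and iron handling, 8 were called lower and 4 higher, the latter near the 14.8% of all genes. The zinc exporter Slc30a1 stood at 20.3, 21.5 and 20.8 CPM in control and at 15.3, 13.1 and 13.4 CPM with doxycycline, a log2 fold change of -0.58, and the importer Slc39a10 rose by 0.35. The metallothioneins Mt1 and Mt2 were not called. The transferrin receptor Tfrc fell from 187 to 153 CPM (-0.29), and the ferritin chains Fth1 (0.14) and Ftl1 (0.34) rose.

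Of 36 genes of glycolysis and hypoxia, 19 were called higher and 4 lower, against 14.8% and 18.7% of all genes. The number lower was thus below that share, and the median of the list was 0.08. Ndrg1, a hypoxia-induced gene, stood at 342, 355 and 351 CPM in control and at 475, 474 and 474 CPM with doxycycline, or 0.44 as a log2 ratio (SE 0.0217, edgeR adjusted p = 7.91e-20). The doxycycline libraries were nearly equal and lay far above control. Carbonic anhydrase Car9 rose from 3.05 to 5.31 CPM (0.79), the vasodilator peptide Adm from 3.8 to 5.04 CPM (0.41) and the mitophagy receptor Bnip3 from 152 to 192 CPM (0.34). Hif1a (0.08) and Vegfa (0.10) were called with small values. The 4 that fell were the glucose transporter Slc2a1 (-0.14), hexokinase Hk2 (-0.11) and the lactate carriers Slc16a1 and Slc16a3, and Ldha and Pgk1 were not called. With dTAG-13 the median of the list was -0.15. Ndrg1, Car9, Adm and Bnip3 had -0.22, -0.64, -1.1 and -0.26 there, and the effect differed between the pairs for 23 of the 36 genes, 22 of them toward a smaller value with dTAG-13. Of all genes, 22.9% differed.

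Of 38 genes of sterol and fatty acid synthesis, 11 were called lower and 4 higher, against 18.7% and 14.8% of all genes. Their median was -0.035, which was 0.001 with library size only. Fatty acid synthase Fasn fell from 704 to 573 CPM (-0.30). The cholesterol exporter Abca1 rose from 7.97 to 12.7 CPM (0.67), as did Insig2, which retains the sterol sensor (0.33). Of these genes, 8 were called lower in both pairs, against 3.68% of all genes.

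**Figure D4:**
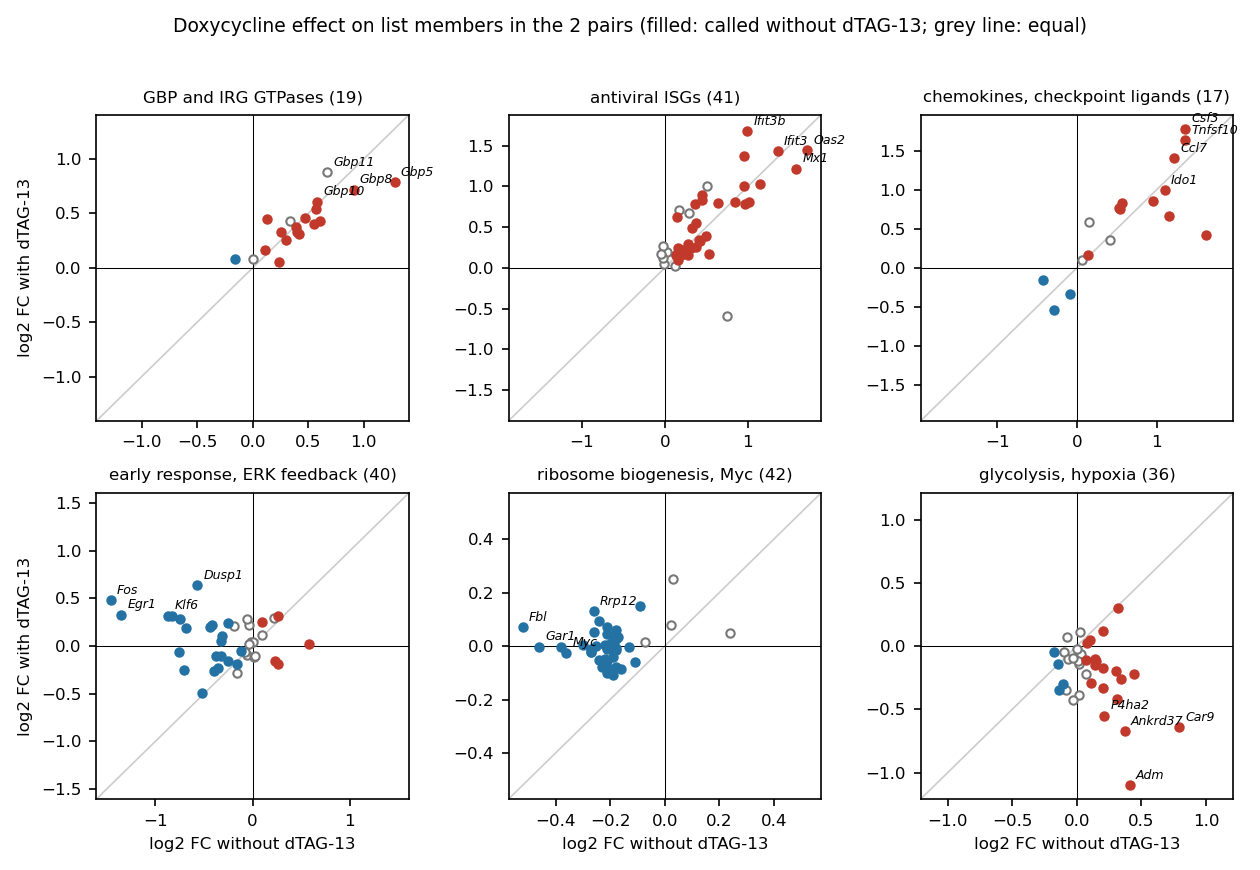
Log2 fold change of the tested members of 6 lists for doxycycline over control (horizontal axis) and for doxycycline plus dTAG-13 over dTAG-13 (vertical axis), with the grey line where both are equal and filled points called without dTAG-13. Most GTPase, antiviral and chemokine genes lie right of 0 and above it, some of them off the line. Most early-response and ribosome biogenesis genes lie left of 0 and around 0 on the vertical axis. Many glycolysis and hypoxia genes lie right of 0 and below it.

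Lysosome and autophagy genes were called higher in 23 of 45 and lower in 5, against 14.8% and 18.7% of all genes, with a median of 0.08. In both pairs 2 were called higher, near the 3.83% of all genes. Mitf, a regulator of lysosomal genes, rose from 3.54 to 5.13 CPM (0.53). The galactosidase Gla stood at 21.4, 21.9 and 22.1 CPM in control and at 28.4, 29.6 and 30.2 CPM with doxycycline, a log2 fold change of 0.43, and Gabarap, which coats autophagosomes, rose by 0.31. The proteases Ctsd (0.19) and Ctsb (0.10) and the membrane protein Lamp1 (0.15) rose. Their related factor Tfeb was not called. The effect differed between the pairs for 17 of the 45, against 22.9% of all genes, always toward a smaller value with dTAG-13.

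Of 36 matrix and adhesion genes, 15 were called higher and 8 lower, against 14.8% and 18.7% of all genes. Their median was 0.06, and 5 were lower with library size only. Besides Col12a1, Itgb7 and Sparc, the fibrillar collagens Col3a1 (0.38) and Col5a2 (66.7 to 101 CPM, 0.59), the microfibrillar Col6a1 (14.7 to 22.3 CPM, 0.60), the basement membrane protein Nid1 (0.55) and the crosslinking enzyme Lox (0.61) rose. Itgb4, which pairs with the laminin receptor chain Itga6, rose from 2.38 to 4.07 CPM (0.78). Fibronectin Fn1 (-0.11), the integrin chain Itgb1 (-0.06) and Col18a1 (-0.15) fell. Col1a1 and Col1a2 did not pass the filter. The summed fibroblast markers given above, most of which is Col3a1 itself, were higher with doxycycline, whereas the marker Dcn and the mesenchymal Vim and Cdh2 fell (-0.20, -0.21 and -0.28). The part of other cell types in these values was not tested. Of 20 matrix proteases and inhibitors, 7 were called higher and 5 lower, against 14.8% and 18.7% of all genes. The membrane metalloprotease Mmp14 (0.25), Mmp9 (0.18) and the inhibitor Timp2 (0.19) rose. Adam19 fell from 22.5, 22.4 and 24 CPM to 14.1, 13.7 and 14 CPM, which is -0.72 on the log2 scale (SE 0.0697, edgeR adjusted p = 5.99e-11), and by 0.78 on the log2 scale with dTAG-13. The urokinase receptor Plaur fell from 120.1 to 91.9 CPM (-0.39).

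How often a call recurred with dTAG-13 differed with its size. Of the 2977 genes called with an absolute log2 fold change under 0.25, 19.1% were called in the same direction with dTAG-13 and 9.88% in the opposite direction. From 0.25 to 0.5 these shares were 26.7 and 4.95%, and from 0.5 to 1 they were 35.5 and 6.52%. Of the 109 genes at 2-fold or more, 39.4% were called in the same direction and 1.83% in the opposite one. Only 47 of these 109 had a mean of at least 1 CPM, and the part of transcript level in these shares was not tested. Over all 12910 genes, 20.4% were called in the pair with dTAG-13, 10.7% higher and 9.64% lower. The groups of genes differed in the same respect: 28 of the 30 antiviral genes called higher recurred, and 4 of the 38 ribosome biogenesis genes called lower did.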

How the data were processed

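The authors deposited raw read counts for 27179 Entrez gene IDs in 12 libraries. Per the submitters' processing notes, bcl2fastq 2.17 and featureCounts were used with the mm10 build, and the column names point to Subread as the aligner, per the file headers. Strand setting and treatment of reads with several matches: not given in the sources used here. Symbols came from RefSeq (GRCm38.p6) for 25275 IDs, and 1886 IDs with 2.097% of the reads had none.

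Counts were tested in edgeR 4.0.16 (R 4.3.3), after filterByExpr by group and with TMM scaling (factors 0.9647 to 0.9949 in the 6 libraries). The two-sided robust quasi-likelihood F test used all 12 libraries with 1 mean per group. P-values were adjusted over 12910 genes by Benjamini-Hochberg. CPM are counts relative to the TMM-scaled library size (edgeR cpm function), and SE were derived from the fold change and F. Fold changes without a stated scale are log2 values. The test was also run on simulated data with known changes and a common spread for all genes. Those data held no spread between cultures, so they cannot show how cultures differ.

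Genes were named by rule: Adpgk, the 10 largest changes per direction at a mean of at least 1 CPM, the 5 largest at 100 CPM, and up to 3 per list, all called and without overlap. Other list members are given by value. Some genes that this rule names are not reported here. The members and the 37 lists were chosen with earlier results of these data known. Alternatives were RLE or library-size scaling, DESeq2 1.42.0, 2 other filters, the 6 libraries alone, the replicate block, a length and GC correction and leaving out each library. Promoters were searched for 4 motifs. Python 3.11.15, pandas 2.3.3, numpy 2.4.6 and matplotlib 3.10.9 were used.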

Additional observations from a re-analysis of the deposited data

Results flagged for a closer look

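For 17 of the 26 genes named for the size of their change, the doxycycline effect with dTAG-13 differed from the effect without it by the test of the difference (edgeR, adjusted p under 0.05 over all genes, 22.9% of which differed). The values that follow are log2 differences, the effect with dTAG-13 minus the effect without it.

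The difference was -0.14 for Adpgk, -0.41 for Vdr and -0.38 for Itgb7, so these increases were smaller with dTAG-13. It was -1.21 for Nos2, whose increase was 1.62 without and 0.42 with dTAG-13. Of the abundant genes that rose, Rarg had -0.23, Sparc -0.29 and Fstl1 -0.13.

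The decreases differed more. Ccn1 had 1.96, with a fall of 1.44 on the log2 scale without and a rise of 0.52 with dTAG-13. Egr1 had 1.69 and Klf6 1.19, and both were likewise called higher with dTAG-13. Fos had 1.95, Fosb 1.15, Iqcg 1.35 and Rnf225 1.67, all at low levels. Trib1 had 0.98, Ppp1r15a 0.68 and Rgs16 0.44, and Rgs16 was lower in both pairs. In the pair with dTAG-13, Rnf225 (0.71), Trib1 (0.27) and Ppp1r15a (0.075) were called higher too, and Fos, Fosb and Iqcg were not called.

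The control side of the 2 pairs was not alike for these genes. Ccn1 stood at 288 CPM in control and 230.2 CPM with dTAG-13 alone, and Egr1 at 279 and 188 CPM. The part of this in the differences was not tested.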

How the results depend on the processing

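Adpgk had a log2 fold change of 3.06 with the replicate number as a block, and 4172 genes were called in that fit. Same-numbered libraries of the 2 groups did not deviate together (correlations -0.143, -0.113 and -0.136), so the numbers do not pair the libraries. Leaving out single libraries gave 3485 to 4449 called genes and a value of 3.05 to 3.08 for Adpgk.

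Scaling by library size only gave 1607 genes called lower, and the filter of 1 CPM in 3 libraries left 66 genes at 2-fold or more. Library size only raised the list medians by a near-constant amount, to 0.207 for interferon-gamma signalling, -0.184 for early response, -0.013 for SRF, -0.059 for YAP, 0.118 for TGF-beta, -0.017 for p53, -0.043 for ATF4, 0.076 for NRF2, 0.02 for metals, -0.017 for ER chaperones, -0.031 for heat shock, -0.034 for the mitochondrial ribosome, -0.073 for mitochondrial proteostasis, 0.113 for glycolysis, -0.168 for ribosome biogenesis, -0.013 for G1/S, 0.049 for G2/M, 0.118 for lysosomes, 0.098 for matrix and 0.055 for proteases. The length and GC correction gave -0.001 for G2/M, -0.08 for heat shock, -0.015 for SRF and 0.045 for TGF-beta. Without a filter the medians were -0.054 for heat shock, -0.003 for NRF2, 0.104 for TGF-beta and -0.064 for YAP. In the fit to the 6 libraries alone they were -0.05 for heat shock and 0.052 for NRF2.

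Leaving out single libraries gave medians of -0.257 to -0.188 for early response, -0.066 to 0.003 for SRF, -0.101 to -0.061 for YAP, 0.065 to 0.126 for TGF-beta, -0.069 to -0.012 for p53, 0.036 to 0.064 for NRF2, -0.074 to -0.051 for heat shock, -0.133 to -0.085 for mitochondrial proteostasis, 0.063 to 0.105 for glycolysis, -0.213 to -0.182 for ribosome biogenesis, -0.06 to -0.027 for G1/S and -0.005 to 0.025 for G2/M. Of the values for single named genes under these alternatives, 2078 kept their direction and call and 62 kept only their direction. A list median within about 0.05 of 0 has no settled sign here, and with 1 culture per group the spread between cultures is unknown.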

Other observations

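The genes in this section were chosen after their values were seen. A further 34 genes were at 2-fold or more upward at a mean of at least 1 CPM, besides the 10 largest increases. Among the receptors and their signalling enzymes, the calcitonin receptor partner Ramp3 rose from 14.2 to 39.4 CPM (1.47), the prostaglandin receptor Ptger4 from 3.36 to 7.59 CPM (1.17), the cAMP phosphodiesterase Pde4b from 4.75 to 14.5 CPM (1.62) and the kinase Map4k3 from 32.4 to 87.7 CPM (1.44). In the pair with dTAG-13 these 4 had log2 fold changes of 1.36, 1.47, 1.56 and 1.42. The nucleoside transporter Slc29a3 rose from 26 to 54.7 CPM (1.07), and the lipase inhibitor Angptl4 from 6.18 to 15.7 CPM (1.34), with 1.12 and 1.49 in the pair with dTAG-13. The surface proteins Ly6a (15.9 to 39.9 CPM) and Ly6c1 (3.13 to 8.6 CPM), the ferritin receptor Scara5 (16.2 to 35.5 CPM) and the transcription factor Cebpd (18 to 38.9 CPM) rose by 1.33, 1.46, 1.13 and 1.11, and were called higher with dTAG-13 at 0.88, 0.82, 0.43 and 0.76. Tnfrsf9, the costimulatory receptor 4-1BB, rose by 1.01 and was not called with dTAG-13 (0.19).

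The PAR-domain transcription factors Hlf (5.34 to 14.3 CPM, 1.42) and Dbp (2.75 to 5.68 CPM, 1.05), which are outputs of the circadian clock, were also at 2-fold or more. Of other clock genes, Nr1d1 (0.42), Nr1d2 (0.26), Per1 (0.34) and Per3 (0.60) were called higher and Ciart lower (-0.39), while Tef (0.10), Per2, Arntl and Clock were not called. With dTAG-13, Hlf was called at 0.97, Nr1d2 at 0.14, Per1 at 0.21 and Ciart at -0.29, and Dbp, Nr1d1 and Per3 were not called. Whether the cultures were harvested at the same hour is not given in the sources used here.

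At a mean under 1 CPM, 2 genes had very few control reads. Htr4, a serotonin receptor, had 1 read over the control libraries and 55 with doxycycline, a ratio of 55.8 with an exact 95% counting interval of 9.6 to 2242. Etl4 had 3 and 99 reads, a ratio of 33.5 (11.1 to 165). Both were called higher with dTAG-13 as well.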
